A study of Mus musculus with 8 samples.

Results

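Genes of DNA repair and of the DNA damage checkpoint were compared between TNFR2+ and TNFR2- regulatory T cells (Tregs) of the mouse spleen. They were a list of 43 genes, named by symbol, each counted in 1 class only, whatever other pathways it acts in. The classes were homologous recombination (15 genes), the Fanconi anemia pathway (7), end joining (6), mismatch repair (3), base excision and single-strand break repair (6) and the checkpoint (6). All 43 were found among the 20172 genes of the deposited table, and all 43 had a mean normalized count of at least 10 over the 8 libraries, the limit set for testing. The cells were sorted as YFP+ CD4+ T cells from spleens of adult female mice of the Foxp3 YFP-cre genotype, in which the *Foxp3* gene drives a fusion of Cre recombinase and yellow fluorescent protein, and were divided by surface TNFR2, the second receptor for tumor necrosis factor. All 8 libraries share this genotype and tissue. The labels name no treatment. There were 4 libraries of either population (replicates 1 to 4), and whether these came from separate or pooled mice is not given in the sources used here, so that p values measure only the spread between these libraries.

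Cells repair broken DNA in several ways. Homologous recombination copies the lost sequence from the sister chromatid and therefore works mainly after DNA has been replicated, whereas end joining ligates the broken ends without a template and works in resting cells too. The Fanconi anemia proteins remove crosslinks between the strands, mismatch repair removes copying errors, base excision repair replaces damaged bases, and the kinases ATM and ATR signal damage to the cell cycle through CHK2 and CHK1. In lymphocytes some of these genes are known for the joining of antigen receptor segments, and others for the rapid divisions that follow activation.

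The sum of a library ranged from 9576920 to 11492762 normalized counts. The estimated depth was 9615000 to 12110000 reads for TNFR2+ libraries and 9100000 to 10980000 for TNFR2- libraries. *Tnfrsf1b*, which encodes the sorted receptor, had a mean of 2501 normalized counts (SD 544, n = 4) in TNFR2+ libraries against 1321 (SD 168) in TNFR2- libraries, with no overlap. *Foxp3* lay between 2812 and 4033 in all libraries. Of 6 markers of Tregs or T cells in general, 3 were called higher (*Ikzf2*, *Ctla4* and *Cd3e*) and 0 lower in TNFR2+ Tregs. Before adjustment 4 of the 6 had a p under 0.05 (limma) on the higher side and 1 on the lower side. The log2 fold changes of the 6 ran from -0.34 to 0.95. In 1 of them every TNFR2+ library was below every TNFR2- library. One library stood apart: on the second principal component, which held 16.7% of the variance, TNFR2- Treg replicate 3 was at 91.32 and the others lay between -39.08 and 17.96. The counts of genes called, the Fanconi and checkpoint medians, *Fanca* and *Fancd2* are given with and without it. Markers of other cells were measured beside these. Mean log2 values of the tested B cell markers (5 tested of 10 listed) ranged from 5.39 to 5.94 in TNFR2+ and from 4.48 to 5.91 in TNFR2- libraries, those of germinal center B cells (3 of 6, with *Bcl6* and *Fas*, which T cells also express) from 7.63 to 7.79 and from 6.83 to 7.96, those of myeloid cells (2 of 10) from 3.86 to 4.03 and from 4.40 to 4.84, and those of cytotoxic lymphocytes (3 of 8) from 5.16 to 5.54 and from 3.56 to 5.24. The 1 cytotoxic marker called was *Nkg7*, at 49.2 to 92.3 normalized counts in TNFR2+ and 2.03 to 18.4 in TNFR2- libraries. Of the erythroid markers 0 of 8 reached the limit, and *Csf1r* was at 0 in every TNFR2+ library. The part of these cells in the values of the repair genes was not tested. In sorted bulk samples, fewer cells that hold a transcript and less of it per cell cannot be told apart.

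Of the 43 genes, 4 were higher and 1 was lower in TNFR2+ Tregs. *Brca1*, *Exo1* and *Rad51ap1* of homologous recombination rose, the histone gene *H2afx* rose, and *Mdc1*, which encodes the protein that reads the phosphorylated form of that histone, fell. Groups were compared with limma on log2(normalized count + 1), two-sided, with p values adjusted by the Benjamini-Hochberg method over the 13990 genes tested and a threshold of 0.05. The share called higher was 9.3% of the 43 genes against 4.52% of all genes tested, and the share called lower was 2.33% against 3.39%. In all, 11.6% of the list and 7.91% of all genes passed. The list was chosen with earlier results of these data known, so these shares only describe it. Before adjustment a p under 0.05 was reached by 8 of the 43 genes in the higher direction and by 2 in the lower one, and by 12.3% and 10.7% of all genes tested (23% in all). The groups did not overlap in 6 of the 43 genes (14%), against 15.4% of all genes. In 4 of the 6 the TNFR2+ libraries were the higher ones (8.08% of all genes) and in 2 the lower ones (7.29%). The log2 fold change was above 0 in 32 of the 43 genes (74.4%), against 49.3% of all genes, and its median was 0.20 against -0.01. Without TNFR2- Treg replicate 3, 4 genes were higher (5.6% of all genes were) and 1 lower (3.94%), with *Fanca* in place of *Rad51ap1*, and the median was 0.27. The counts were smaller when other single libraries were left out: 2 higher genes without TNFR2+ replicate 1 or TNFR2- replicate 4, and 0 without TNFR2+ replicate 2 or TNFR2+ replicate 3, where 6 and 8 genes on the higher side still had an unadjusted p under 0.05. The gene called lower was lost without TNFR2+ replicate 1, 2 or 3 or TNFR2- replicate 1 or 2. With variances moderated without an intensity trend, limma called 0 of the 43 genes in either direction. Before adjustment 7 on the higher and 2 on the lower side were under 0.05.

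**Figure D1:**
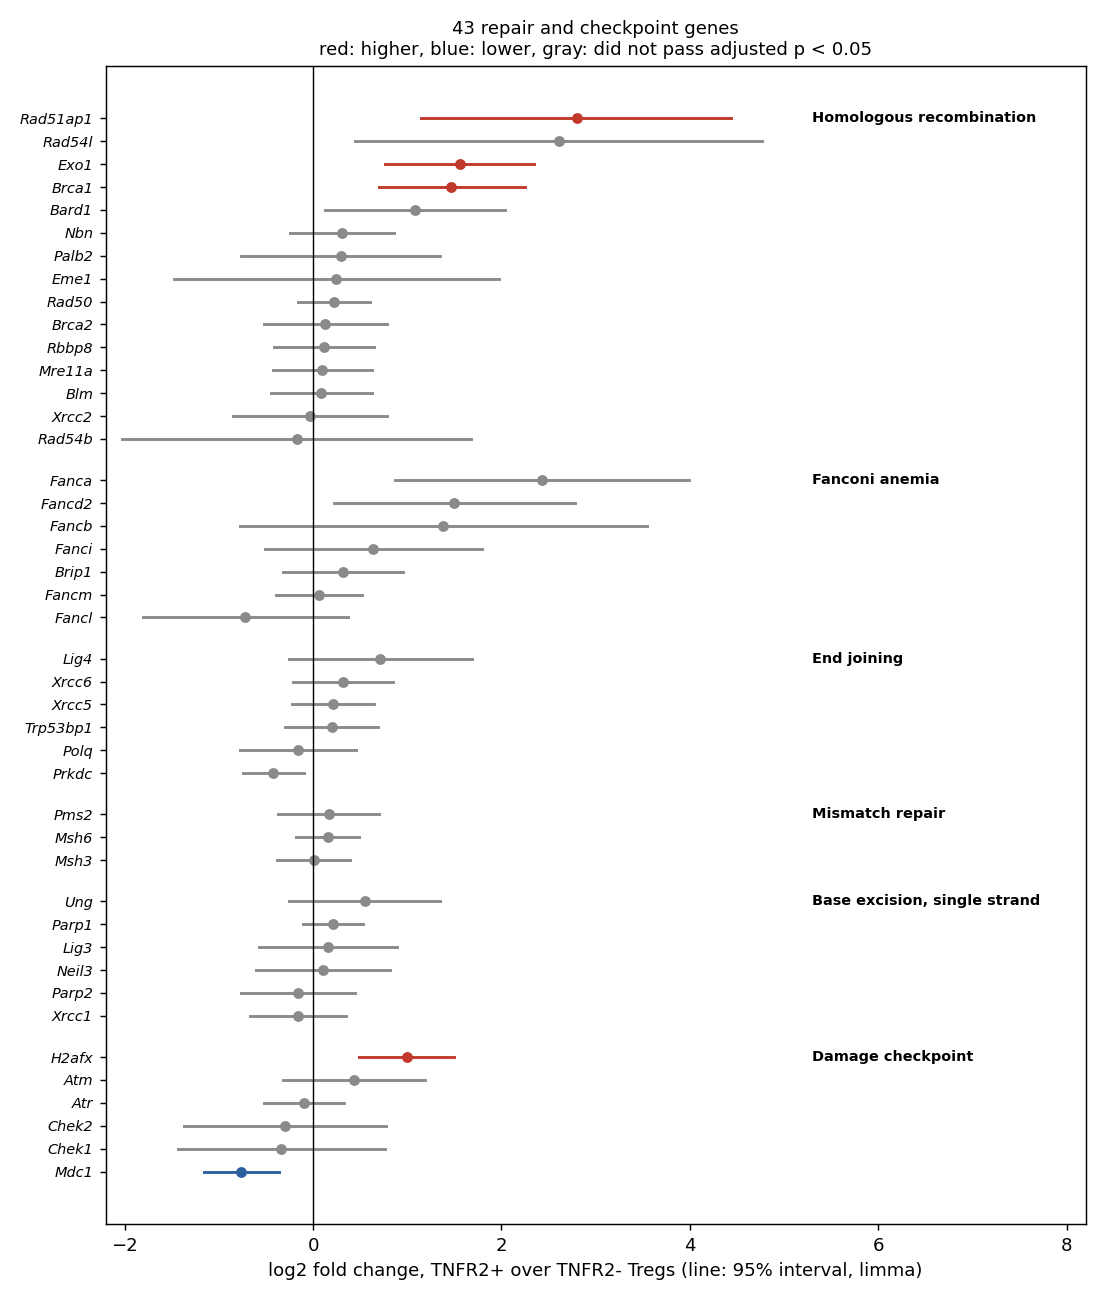
The log2 fold change of each of the 43 genes in TNFR2+ over TNFR2- Tregs (points) with its 95% interval from limma (lines), ordered by pathway and by size. The 4 genes in red (*Rad51ap1*, *Exo1*, *Brca1*, *H2afx*) and the 1 in blue (*Mdc1*) passed the adjusted threshold, and the longest intervals belong to genes with few counts.

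Precision differed with abundance. The 29 genes with a mean of at least 100 normalized counts had standard errors of 0.15 to 0.49 on the log2 scale (median 0.25), and the 14 below that had 0.37 to 1.00 (median 0.56). Of the 38 genes that did not pass, 23 had a 95% interval that lay wholly within a log2 fold change of 1 in either direction, so for these a difference of 1 or more on the log2 scale was outside the interval. For the other 15 it was not. Exons of 21 of the 43 genes are shared with another annotated gene, in 4 of them on the same strand (*Rad54b*, *Pms2*, *Parp1* and *Atr*), and how their reads were divided is not given in the sources used here.

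Promoters are shown for *Brca1*, *Rad51ap1* and *Mdc1*, 3 of the 5 genes called, and for *Msh6* and *Xrcc6*, a pair that hold the same motif as *Mdc1* and did not pass. RefSeq (GRCm38.p6) gave windows from 250 bases before to 50 bases after the start for 34 of the 43 genes. Windows were searched on both strands for E2F sites, the target of factors that switch on genes of replication, in the forms TTTCCCGC, TTTCGCGC, TTTGCCGC and TTTGGCGC, and for the cell cycle homology region (TTTGAA), known from genes of mitosis. No E2F form contains TTTGAA. The stretch from 150 bases before to 30 after the start lies at chr11:101551926-101552105 (minus strand) for *Brca1*, chr6:126939558-126939737 (minus) for *Rad51ap1*, chr17:35841348-35841527 (plus) for *Mdc1*, chr17:87974900-87975079 (plus) for *Msh6* and chr15:82016219-82016398 (plus) for *Xrcc6*. Capitals mark an E2F form on either strand.
Brca1: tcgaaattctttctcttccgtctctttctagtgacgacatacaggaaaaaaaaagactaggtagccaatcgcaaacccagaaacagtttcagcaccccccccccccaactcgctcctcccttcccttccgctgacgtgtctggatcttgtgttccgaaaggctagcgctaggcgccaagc
Rad51ap1: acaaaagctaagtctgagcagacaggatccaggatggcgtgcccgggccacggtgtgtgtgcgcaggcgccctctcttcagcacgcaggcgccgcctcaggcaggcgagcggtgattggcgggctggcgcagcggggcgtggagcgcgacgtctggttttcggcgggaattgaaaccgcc
Mdc1: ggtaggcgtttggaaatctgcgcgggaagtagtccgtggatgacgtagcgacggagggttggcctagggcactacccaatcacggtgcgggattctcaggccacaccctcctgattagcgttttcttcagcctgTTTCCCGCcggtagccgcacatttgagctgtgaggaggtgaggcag
Msh6: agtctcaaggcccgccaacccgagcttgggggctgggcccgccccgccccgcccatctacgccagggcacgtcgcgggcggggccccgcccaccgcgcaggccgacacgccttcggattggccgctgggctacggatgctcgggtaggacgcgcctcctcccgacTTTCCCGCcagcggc
Xrcc6: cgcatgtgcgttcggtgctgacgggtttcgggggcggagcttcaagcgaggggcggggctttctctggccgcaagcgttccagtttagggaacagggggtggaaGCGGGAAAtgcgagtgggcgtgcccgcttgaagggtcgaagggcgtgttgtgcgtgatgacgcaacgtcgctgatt
An E2F form was in the window of 7 of the 34 genes (20.6%): *Brca2*, *Bard1*, *Xrcc6*, *Msh3*, *Msh6*, *Chek2* and *Mdc1*. The share over all 27025 genes with a window was 2.6%. Of these 7 genes, *Mdc1*, which was lower in TNFR2+ Tregs, was the 1 gene called, and its form begins 16 bases before the start. The TTTGAA motif was in the window of 3 of 34 genes (8.82%; *Bard1*, *Eme1* and *Polq*) against 20.2% of all genes. For comparison, 10 of 18 replication genes (55.6%) held an E2F form and 13 of 17 mitosis genes (76.5%) held TTTGAA. The windows of *Brca1* and *Rad51ap1* held neither. *Exo1* and *H2afx*, which also rose, had no window and were not searched.

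Homologous recombination held 3 of the 4 genes that rose. Among its 15 genes 13 had a log2 fold change above 0 (86.7%, against 49.3% of all genes), with a median of 0.24, and 3 were higher and 0 lower by the adjusted test (20% and 0%, against 4.52% and 3.39% of all genes). In 19 other tested genes of the same pathway, 9 were above 0 (47.4%) and the median was -0.04. Limma called 0 of these 19, against 7.91% of all genes. Before adjustment 3 were under 0.05 on the higher and 1 on the lower side, against 12.3% and 10.7% of all genes. These lists were chosen with earlier results of these data known. The genes that passed act at different steps: EXO1 is a nuclease that trims broken ends, BRCA1 helps to prepare them for recombination, and RAD51AP1 promotes the pairing of the strands.

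*Brca1* (ENSMUSG00000017146, GRCm38 chromosome 11 from 101488764 to 101551955, minus strand) had 168, 237, 564 and 217 normalized counts in TNFR2+ replicates 1 to 4 and 70.9, 105, 129 and 83.4 in TNFR2- replicates 1 to 4. Every TNFR2+ library was above every TNFR2- library, and TNFR2+ replicate 3 was the highest by a wide margin. The means were 297 (SD 181) and 97.0 (SD 25.5), and the log2 fold change was 1.47 (SE 0.36, adjusted p = 0.0228, limma). The call was lost without TNFR2+ replicate 2 (adjusted p = 0.0549), TNFR2+ replicate 3 (0.0596), TNFR2- replicate 1 (0.0618) or TNFR2- replicate 4 (0.0554), while the log2 fold change stayed between 1.11 and 1.69 in the fits that left out a library.

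*Exo1* (ENSMUSG00000039748, chromosome 1 from 175880581 to 175913489, plus strand) had 94.4, 194, 232 and 157 normalized counts in TNFR2+ libraries and 74.5, 56.3, 62.5 and 32.4 in TNFR2- libraries. The groups did not overlap, although TNFR2+ replicate 1 came near TNFR2- replicate 1. Its log2 fold change was 1.56 (SE 0.37, adjusted p = 0.0204, limma). Leaving out TNFR2+ replicate 2 or 3 gave adjusted p values of 0.0725 and 0.0751.

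*Rad51ap1* (ENSMUSG00000030346, chromosome 6 from 126923050 to 126939587, minus strand) was scarce, with 53.2, 48.2, 50.9 and 20.7 normalized counts in TNFR2+ libraries and 16.1, 7.73, 1.24 and 2.84 in TNFR2- libraries. The groups did not overlap, and the lowest TNFR2+ library, replicate 4, was far below the other 3. It had the largest log2 fold change of the 43 genes, 2.80 (SE 0.76, adjusted p = 0.0397, limma), a value that depended on the pseudocount because of the low TNFR2- counts, and that lay between 2.10 and 2.95 in the alternatives that kept all libraries. The adjusted p was 0.0535 after quantile normalization and between 0.0562 and 0.124 without any 1 of TNFR2+ replicates 1 to 3 or TNFR2- replicates 2 to 4.

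Partners of these 3 genes did not pass. *Rad54l*, a motor protein that remodels DNA during recombination, had 33.3, 69.0, 98.9 and 108 normalized counts in TNFR2+ libraries against 48.2, 10.2, 33.3 and 0 in TNFR2- libraries. TNFR2- replicate 1 lay above TNFR2+ replicate 1, so the groups overlapped (log2 fold change 2.61, SE 1.00, adjusted p = 0.135, limma), and exons of *Rad54l* overlap *Lrrc41* on the other strand. *Bard1*, the obligate partner of BRCA1 in its ubiquitin ligase, had 90.3, 133, 117 and 53.2 against 72.0, 25.1, 31.1 and 62.2 normalized counts. Here TNFR2+ replicate 4 was below 2 TNFR2- libraries, and the log2 fold change was 1.08 (SE 0.44, adjusted p = 0.161).

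For the rest of the pathway the estimates lay between -0.17 and 0.31, with intervals of differing width. *Brca2*, which acts on the trimmed single-stranded DNA, had means of 325 (SD 62.5) in TNFR2+ and 319.9 (SD 162) in TNFR2- libraries. The difference on the log2 scale was 0.13, with a 95% interval from -0.52 to 0.79. *Palb2*, the bridge between BRCA1 and BRCA2, was at 0.30, with an interval of -0.76 to 1.35. For the sensors of broken ends the log2 fold changes were 0.10 for *Mre11a*, 0.22 for *Rad50* and 0.31 for *Nbn*, and for *Rbbp8*, which starts end trimming, 0.12. Their intervals all lay within 1 of 0. *Blm*, a helicase that dissolves joined molecules, was at 0.09 and *Xrcc2*, a further recombination factor, at -0.03, and these 2 intervals too lay within 1 of 0. *Rad54b* (-0.17, interval -2.03 to 1.68) and the nuclease subunit *Eme1* (0.24, interval -1.48 to 1.97) had wide intervals. These reach beyond 1 on either side, so a difference of 1 was not excluded. *Rad54b* also shares exon sequence with *Fsbp* on the same strand.

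**Figure D2:**
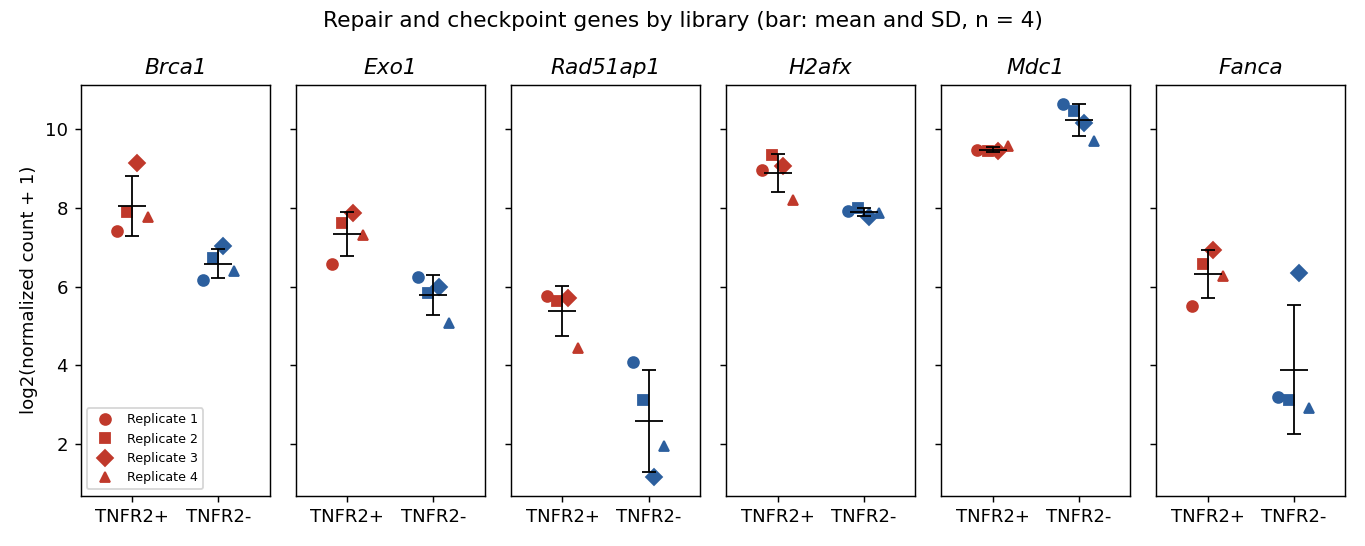
log2(normalized count + 1) of *Brca1*, *Exo1*, *Rad51ap1*, *H2afx*, *Mdc1* and *Fanca* in each library (points, with a shape for each replicate number), with the mean and SD of the 4 libraries of a population as bars. The groups do not overlap in the first 5 genes, and *Fanca* in TNFR2- replicate 3 stands at 80.6 normalized counts, far above the other TNFR2- libraries.

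The Fanconi anemia genes had the highest class median, 0.64, but 0 of 7 passed (7.91% of all genes tested did). Before adjustment 2 of the 7 were under 0.05 on the higher and 0 on the lower side (limma), against 12.3% and 10.7% of all genes. *Fanca*, a subunit of the core complex that marks crosslinks for repair, had 44.8, 94.1, 121 and 76.2 normalized counts in TNFR2+ libraries and 8.13, 7.62, 80.6 and 6.51 in TNFR2- libraries. The overlap came from TNFR2- replicate 3, the library that stands apart, while the other 3 lay below every TNFR2+ library. With all libraries the log2 fold change was 2.43 (SE 0.72, adjusted p = 0.0574, limma), and without TNFR2- replicate 3 it was 3.26 (adjusted p = 0.00239). Exons of *Fanca* overlap *Zfp276* on the other strand. *Fancd2*, whose product is the protein that the core complex modifies, had 104, 77.6, 41.9 and 61.6 against 30.2, 51.7, 6.30 and 28.1 normalized counts. Only TNFR2- replicate 2 lay above the lowest TNFR2+ library. The log2 fold change of *Fancd2* was 1.50 (SE 0.59, adjusted p = 0.146, limma). Without TNFR2- replicate 3 it was 0.92 (adjusted p = 0.237, limma). Its partner *Fanci* was at 0.64 (interval -0.51 to 1.79) and *Fancb*, another core subunit with few reads, at 1.38 (interval -0.78 to 3.55). *Fancl*, the ligase of the core complex, was the 1 gene of the class below 0, at -0.72 (interval -1.80 to 0.37). The helicase *Brip1* was at 0.32 and the translocase *Fancm* at 0.06, with intervals within 1 of 0. The class median was 0.45 without TNFR2- replicate 3 and 0.25 without TNFR2- replicate 4.

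End joining had 0 of 6 genes called by limma, against 7.91% of all genes tested. Before adjustment 0 were under 0.05 on the higher and 1 on the lower side, against 12.3% and 10.7% of all genes. *Prkdc*, the catalytic subunit of the DNA-dependent kinase, had 665, 905, 698 and 817 normalized counts in TNFR2+ libraries and 981, 1039, 936 and 1145 in TNFR2- libraries. The groups did not overlap, with every TNFR2+ library below every TNFR2- library, but the log2 fold change was small, -0.42 (SE 0.15, adjusted p = 0.106, limma), and the call was not reached when any library was left out (adjusted p from 0.0925 to 0.236). The Ku subunits that carry this kinase to DNA ends were at 0.21 (*Xrcc5*) and 0.32 (*Xrcc6*). *Trp53bp1*, which protects ends from trimming, was at 0.20 and *Polq*, the polymerase of the alternative pathway, at -0.16. The intervals of these 4 genes and of *Prkdc* lay within 1 of 0. *Lig4*, the ligase of the pathway, was at 0.71 (interval -0.26 to 1.69).

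Of the genes listed under mismatch repair and under base excision repair, 0 of 3 and 0 of 6 passed the threshold of limma, adjusted or not. Of all genes tested 7.91% passed with adjustment and 23% without it. *Exo1* was counted under homologous recombination only. *Msh6* (0.16), *Msh3* (0.01) and *Pms2* (0.17), which recognize and process mismatches, had intervals within 1 of 0. *Msh3* was at 914 normalized counts in TNFR2- replicate 3 against 635 to 659.8 in the other TNFR2- libraries. *Parp1*, which senses single-strand breaks, was among the most precise genes, with means of 921 (SD 98.9) and 798 (SD 96.0) and a log2 fold change of 0.21 (SE 0.15). The scaffold *Xrcc1* and the second polymerase for ADP-ribose, *Parp2*, were both at -0.16, the ligase *Lig3* was at 0.16 and the glycosylase *Neil3* at 0.11, again with intervals within 1 of 0. *Ung*, the glycosylase that removes uracil from DNA, was at 0.55 (interval -0.25 to 1.35).

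Of the 6 checkpoint genes, 1 rose and 1 fell (16.7% each way, against 4.52% and 3.39% of all genes). *H2afx* (ENSMUSG00000049932, chromosome 9 from 44334694 to 44336077, plus strand), which encodes the histone variant that ATM and ATR phosphorylate beside a break, had 501, 643, 533 and 292 normalized counts in TNFR2+ libraries and 241, 254, 218 and 234 in TNFR2- libraries. The groups did not overlap, TNFR2+ replicate 4 was the closest to the TNFR2- libraries, and those lay within a narrow range (SD 15.0). The log2 fold change was 1.00 (SE 0.23, adjusted p = 0.0198, limma), the lowest adjusted p of the 43 genes. Leaving out TNFR2+ replicate 1, 2 or 3 gave adjusted p values of 0.0572, 0.0742 and 0.0647. Its exon overlaps the annotated gene *Gm44335* on the other strand.

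*Mdc1* (ENSMUSG00000061607, chromosome 17 from 35841515 to 35859670, plus strand), whose protein binds the phosphorylated histone and holds repair factors at the break, went the other way. It had 706, 693, 695 and 759.9 normalized counts in TNFR2+ libraries and 1580.5, 1416, 1139.8 and 831 in TNFR2- libraries. The TNFR2+ libraries were nearly equal (SD 31.5), the TNFR2- libraries spread widely (SD 329), and all 4 of these lay higher. Its log2 fold change was -0.76 (SE 0.19, adjusted p = 0.0237, limma). The call was lost without TNFR2+ replicate 1 (adjusted p = 0.0591), 2 (0.0673) or 3 (0.064) and without TNFR2- replicate 1 (0.0704) or 2 (0.0792).

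The kinases themselves did not pass. *Atm* had 2399, 1031, 646 and 2312 normalized counts in TNFR2+ libraries against 877, 1257, 819.9 and 1219 in TNFR2- libraries. TNFR2+ replicates 1 and 4 were above all TNFR2- libraries and replicate 3 was below them, and the log2 fold change was 0.44 (SE 0.35, adjusted p = 0.507). *Atr* was at -0.10 (interval -0.52 to 0.33). *Chek1* had 142, 123, 92.6 and 23.5 normalized counts in TNFR2+ libraries and 74.0, 132, 139 and 73.6 in TNFR2- libraries, at -0.34 (interval -1.43 to 0.76). *Chek2* was at -0.30 (interval -1.37 to 0.77), with 274 normalized counts in TNFR2- replicate 3 and 63.1 to 83.9 in the other TNFR2- libraries. The median of the 6 checkpoint genes was -0.20. It was 0.09 without TNFR2- replicate 3, 0.05 without TNFR2+ replicate 4 and -0.03 without TNFR2+ replicate 2.

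Levels between genes are comparable only per length. Per kilobase of the longest annotated transcript, *H2afx* was the most abundant of the 43 genes, with means of 355 normalized counts per kilobase in TNFR2+ and 171 in TNFR2- Tregs. It was followed by *Parp1* (222 over all libraries), *Msh3* (169), *Msh6* (151), *Atm* (134) and *Mdc1* (133). At the other end were *Fancb* (4.11), *Eme1* (7.62), *Lig4* (8.63), *Fancd2* (9.11) and *Rad54b* (9.51). *Brca1* ranked 25th by this scale, with 45.1 in TNFR2+ and 14.8 in TNFR2- Tregs, *Exo1* ranked 33rd (21.7 and 7.24) and *Rad51ap1* 36th (19.4 and 3.12). The genes that rose included the most abundant gene of the list and genes from its lower part.

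**Figure D3:**
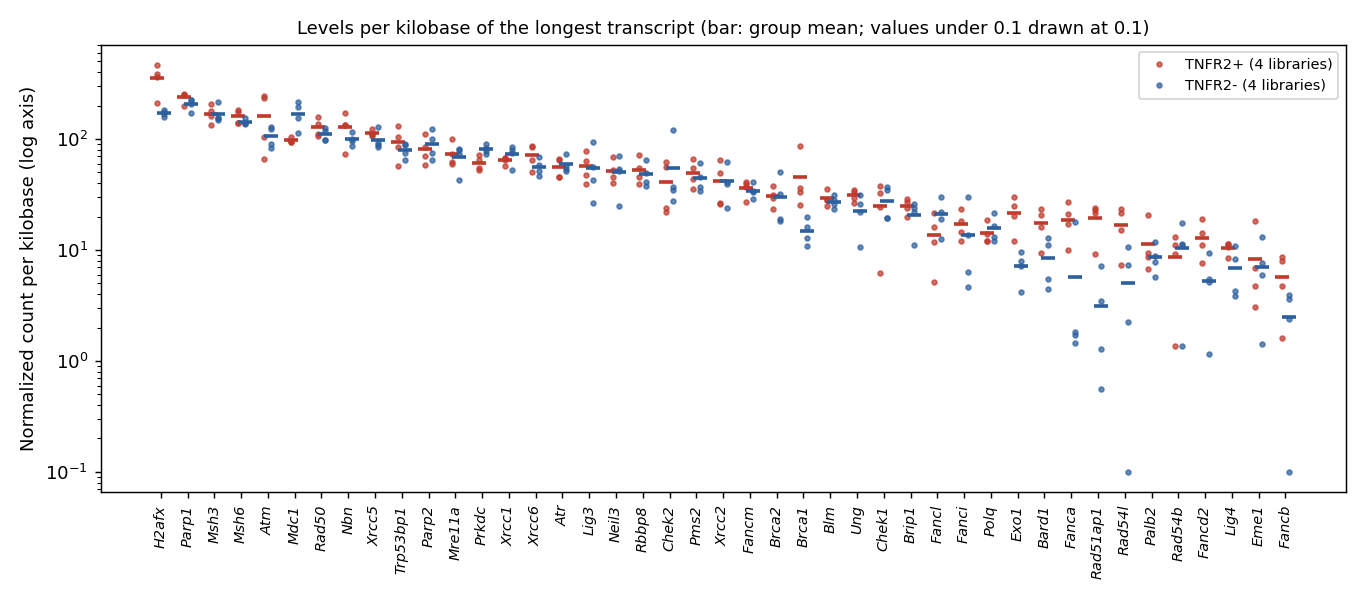
Normalized counts per kilobase of the longest annotated transcript for the 43 genes, on a log axis, ordered by their mean over all libraries, with a point per library and a bar per group mean (values under 0.1 are drawn at 0.1). *H2afx* is highest, at 355 in TNFR2+ and 171 in TNFR2- Tregs, and the genes at the right, with few counts, spread the most between libraries of one population.

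The rest of the repair machinery was examined through 93 further genes of the same pathways and of nucleotide excision repair, of which 92 were in the table and 89 reached the limit. Of these, 0 passed the adjusted test of limma, and 7 on the higher and 3 on the lower side had an unadjusted p under 0.05 (12.3% and 10.7% of all genes did). With a pseudocount of 5, a minimum mean of 50 or quantile normalization, or without TNFR2- replicate 3 or 4, 2 of them passed, and with sample weights 3. The other alternatives gave 0 or 1. Their median log2 fold change was 0.01, and 46 of the 89 lay above 0 (51.7%). *Slx4*, a scaffold for nucleases, was at -0.68 (SE 0.19, adjusted p = 0.0514, limma). Its values overlapped through TNFR2+ replicate 4, at 502 normalized counts, and TNFR2- replicate 3, at 485. *Ddb1*, which helps to find ultraviolet damage, was at 0.42 (SE 0.12, adjusted p = 0.0582), without overlap between the groups.

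Genes of cell division moved further in the same libraries. Of 24 replication genes, 8 were higher and 0 lower in TNFR2+ Tregs (33.3%, against 4.52% of all genes), with a median log2 fold change of 1.03. *Mcm2*, a subunit of the replicative helicase, was at 1.17 (SE 0.20, adjusted p = 0.00371, limma). Of 20 mitosis genes, 11 were higher and 0 lower (55%), with a median of 2.12, and *Mki67*, the marker of dividing cells, was at 2.84 (SE 0.32, adjusted p = 0.000352). The mean log2 value of the mitosis genes was 7.34, 7.81, 7.62 and 6.91 in TNFR2+ libraries and 5.73, 5.10, 5.56 and 5.18 in TNFR2- libraries. For the 43 repair and checkpoint genes it was 7.39, 7.51, 7.51 and 7.33 against 7.15, 6.98, 7.15 and 6.75. The populations did not overlap in either mean, and the gap was several times wider for mitosis. The part of the dividing cells in the values of *Brca1*, *Exo1*, *Rad51ap1* and *H2afx* was not tested.

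**Figure D4:**
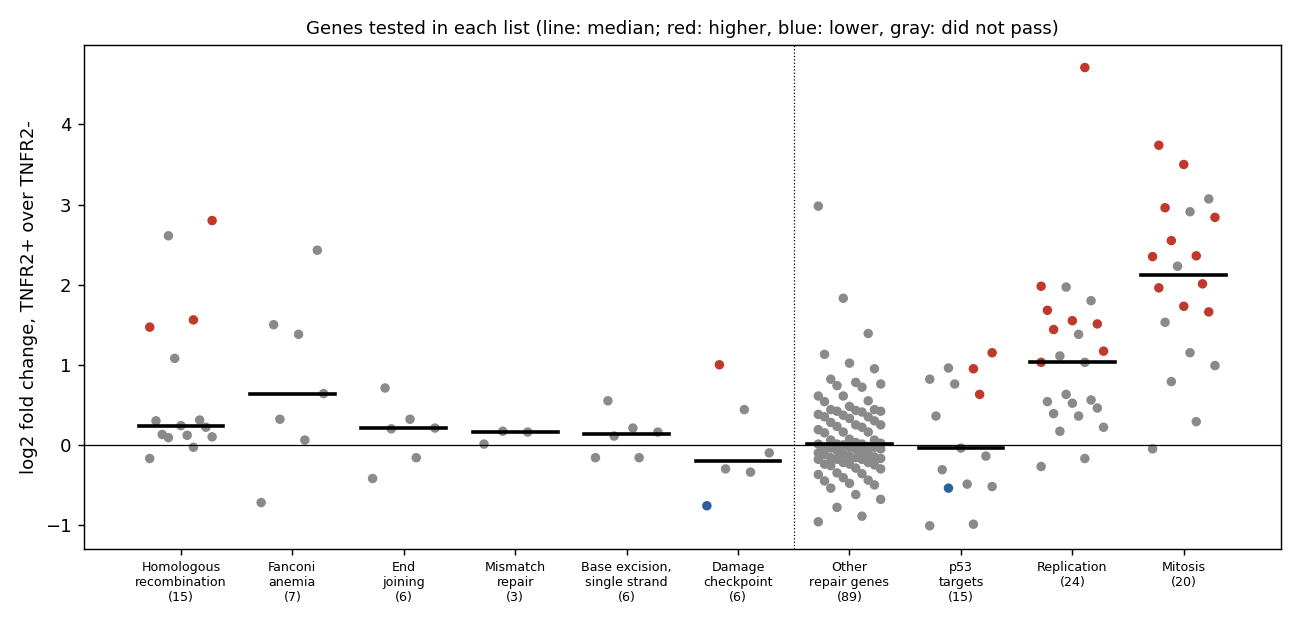
Log2 fold changes in TNFR2+ over TNFR2- Tregs for each tested gene (points, red higher, blue lower, gray not past the threshold) of the 6 pathways, of the 89 other repair genes, and of p53 targets, replication genes and mitosis genes, with the median of each as a line. The medians of the repair pathways lie between -0.20 and 0.64, below those of replication (1.03) and mitosis (2.12).

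Targets of p53, the factor that the checkpoint activates, were mixed. Of 16 listed genes 15 were tested, and 3 were higher and 1 lower (20% and 6.67%, against 4.52% and 3.39% of all genes), with a median log2 fold change of -0.04. *Cdkn1a*, the inhibitor that stops the cell cycle, had 126, 96.1, 45.1 and 69.9 normalized counts in TNFR2+ libraries and 218, 23.9, 217 and 131 in TNFR2- libraries, at -0.49 (SE 0.61, adjusted p = 0.685). *Ccng1*, a cyclin induced by p53, rose by 0.63 (SE 0.14, adjusted p = 0.0156). The other 3 that passed, named after their values were seen, were the cell death gene *Pmaip1* (1.15, adjusted p = 0.00411), *Trp53inp1* (0.95, adjusted p = 0.0342) and the antiproliferative gene *Btg2* (-0.54, adjusted p = 0.0129, limma). *Trp53* itself was at 0.25 (SE 0.23, adjusted p = 0.564).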

How the data were processed

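The series holds 8 libraries, 4 of TNFR2+ and 4 of TNFR2- Tregs, grouped by their titles. Per the labels, the authors made stranded total RNA libraries, checked the reads with FastQC 0.11.8, trimmed them with Trim Galore, estimated transcript abundance with Salmon 1.3.0 on GRCm38 and normalized with DESeq2 1.28. The deposited values are the authors' normalized counts per gene, a signal that is not on a log scale. The step from transcripts to genes and the strand setting are not given in the sources used here. The deposited values are not read counts. In 2806 genes with a single transcript of over 1500 bases, 69.7% to 96.4% of low values lay within 0.1 of whole multiples of 1 step per library. The step was the best of many tried, and 20% is the share by chance for a fixed step. The steps gave the estimated depths and were computed in these genes only.

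Symbols and coordinates came from GENCODE M21 (20008 of 20172 identifiers matched). Values were tested as log2(normalized count + 1) with limma 3.58.1 in R 4.3.3, with an intensity trend, over the 13990 genes with a mean of at least 10. The procedure was also run on simulated data with means and spreads taken from these libraries. The outcome of that run is not given here, and no result rests on it. No near-identical copies of the 43 genes were found with blastn 2.17.0 (0 of 43, at 95% identity over 50% of the length). The 43 genes and the other lists were chosen with earlier results of these data known. All 43 are named; of other repair genes up to 3 of a class, and of the further lists the first listed. The values of 1 other repair gene are not reported here. The alternatives were pseudocounts of 0.5 and 5, minimum means of 1 and 50, no intensity trend, quantile normalization, upper quartile scaling, sample weights, a replicate block and leaving out each library.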

Additional observations from a re-analysis of the deposited data

Results flagged for a closer look

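In each of the 43 genes and each population, the highest or lowest of the 4 libraries was compared with the others by Dixon's ratio of gap to range, and 5 of 86 groups had a library beyond the 95% critical value. Chance alone sets about 1 in 20 groups apart. In 3 of the 5 the library was TNFR2- replicate 3, the one that also stood apart on the second principal component: *Fanca* was at 80.6 normalized counts there (6.51 to 8.13 in the other TNFR2- libraries), *Msh3* at 914 (635 to 659.8) and *Chek2* at 274 (63.1 to 83.9). *Rad51ap1* was at 20.7 in TNFR2+ replicate 4 (48.2 to 53.2 in the other TNFR2+ libraries), and *Parp1* was at 774 in TNFR2+ replicate 2 (960.4 to 984).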

How the results depend on the processing

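Of the 17 alternatives, 9 kept all libraries and 8 left out a library. In the 5 genes that passed, the log2 fold change kept their direction in all 84 fits, and 26 of these fits no longer passed; *Rad51ap1* was not tested at a minimum mean of 50. The median over the 43 genes stayed between 0.15 and 0.20 in the alternatives that kept all libraries and between 0.16 and 0.27 when a library was left out. Without an intensity trend the genes called were 283 higher and 182 lower over all genes (633 and 474 with it) and 0 higher and 0 lower among the 43; the cause was not tested. When each library was left out in turn, 339 to 777 genes were higher and 279 to 547 lower over all genes, and 0 to 4 and 0 to 1 among the 43; these fits rest on fewer libraries. *Fanca* passed with sample weights (adjusted p = 0.0241), with the replicate block (0.032) and without TNFR2- replicate 3. It was the 1 gene of the 38 not called that passed in any alternative, and 17 of the 38 changed sign in 34 of 640 fits. The correlations of same-numbered libraries, as deviations from the group means, lay between -0.0386 and 0.000542. Those of differently numbered libraries lay between -0.0989 and 0.0772. Whether same-numbered libraries came from the same mice cannot be told from these values. The replicate block gave 675 higher and 508 lower genes, 5 higher and 1 lower of the 43, and a median of 0.20. Standard errors were larger in the 14 genes with a mean under 100, where counting error and the spread between libraries were not separated.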
